A study of Rattus norvegicus with 8 samples.

Results

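The genes of mitochondrial and peroxisomal fatty acid oxidation described here are a list of 35 symbols, taken wherever the symbol stood in the deposited gene tables. Of the 35, 32 were among the 14295 genes of the table for adipose-derived stem cells and 34 among the 18236 genes of the table for adipocytes, and 32 were in both. The peroxisomal reductase gene Decr2 was in neither table, and Ppargc1a and Ucp3 were listed for adipocytes only, so their level in stem cells was not analysed here. The rule uses no measured value.

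Fatty acids are oxidized in mitochondria after activation to acyl-CoA and transfer across both membranes by the carnitine shuttle. Each turn of the spiral uses an acyl-CoA dehydrogenase, a hydratase, a hydroxyacyl-CoA dehydrogenase and a thiolase, and electrons reach the respiratory chain through electron transfer flavoprotein. Peroxisomes shorten very long and branched chains with enzymes of their own. The nuclear receptors Ppara and Ppard and the coactivator Ppargc1a drive many of these genes, and white adipocytes, which mainly store triglyceride, also carry the pathway.

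The cells came from the inguinal fat of wild-type Wistar rats kept for 6 months on a high-fat sucrose diet (HFS) or a control diet (C). Stem cells were released with collagenase and cultured (ASC_HFS and ASC_C), and adipocytes were made from such cells in culture (AD_HFS and AD_C) with 3 days of 5.0 µM dexamethasone, 0.5 mM isobutylmethylxanthine and 10.0 µg/mL insulin and then 7 days of insulin alone. Each of the 4 groups had 2 RNA sequencing libraries. The labels do not say whether these came from separate rats or cultures, so each p below measures the spread between 2 libraries, which may be technical.

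Recovered reads ranged from 76083827 to 119555051 in the AD libraries and from 992618 to 7290961 in the ASC libraries. ASC_HFS replicate 2 was the shallowest, with 10.6% of listed genes without a read, and 3 reads there equalled 10.9 normalized counts. The AD_HFS pair stood apart by its closeness: the median absolute log2 difference between the paired libraries was 0.06, against 0.28 in AD_C, 0.32 in ASC_HFS and 0.34 in ASC_C. A chi-square that takes reads as independent molecules gave a mean of 7.2 and a median of 1.39 per gene for this pair, so it is not settled here whether the pair stands for 1 culture or for 2. Mesenchymal progenitor markers summed to 58207 and 62385 RPM (reads per 1000000 reads) in ASC_HFS and 31707 and 36836 in ASC_C. Of 15 symbols 1 was not listed, and none of the 14 listed was at 0 in all 4 libraries. Collagen genes carried much of the sum, Col1a1 alone 22131 and 23434 in ASC_HFS and 8660.0 and 11858 in ASC_C. Of the 14, 4 were called higher and 3 lower in ASC_HFS, beside 9.41% and 9.70% of all 14295 genes. Pdgfra, a receptor that marks such progenitors, had 170.4 and 149.1 in ASC_HFS against 787.9 and 549.0 in ASC_C. The same cultures held macrophage, endothelial and epithelial or mammary markers, whose values stand beside the results below. In such bulk RNA, fewer cells of a type and less RNA per cell cannot be told apart.

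Before differentiation, HFS stem cells had more transcript of the entry enzyme Cpt1a and less of 5 other enzyme genes on the list. Cpt1a rose 2.54-fold in ASC_HFS. Acads, Eci2, Acaa1a, Crat and Decr1 were lower, by 4.27-fold, 4.11-fold, 2.81-fold, 2.58-fold and 2.09-fold. The other 26 listed genes did not pass the test, which was limma-trend at an adjusted p (Benjamini-Hochberg, over the whole table) under 0.05. Of all 14295 genes, 9.41% were called higher and 9.70% lower in ASC_HFS, 19.1% in all. The 1 higher and 5 lower of 32 thus came to 3.13% and 15.6%, and the total of 6 (18.8%) was close to the share over all genes. The median log2 difference, HFS minus C on the deposited scale, was -0.15 over the 32 genes and -0.04 over all genes.

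The plot of the 6 called genes in stem cells gives each library, and the promoters of 5 of them are set out below because they moved in the same comparison. They are read from the RefSeq promoter table (build GRCr8), 250 bases up to the annotated start, and capitals mark the GC box GGGCGG or its reverse complement. Decr1 had no entry. The windows are chr1:209995910-209996159 (plus strand) for Cpt1a, chr3:34087100-34087349 (minus strand) for Crat, chr12:47154083-47154332 (plus) for Acads, chr8:127957231-127957480 (plus) for Acaa1a and chr17:30075516-30075765 (plus) for Eci2.
Cpt1a: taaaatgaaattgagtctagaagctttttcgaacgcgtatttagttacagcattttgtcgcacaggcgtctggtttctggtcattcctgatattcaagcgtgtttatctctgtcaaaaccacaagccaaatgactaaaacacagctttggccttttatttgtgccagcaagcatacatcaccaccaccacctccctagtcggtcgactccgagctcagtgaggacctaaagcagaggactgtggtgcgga
Crat: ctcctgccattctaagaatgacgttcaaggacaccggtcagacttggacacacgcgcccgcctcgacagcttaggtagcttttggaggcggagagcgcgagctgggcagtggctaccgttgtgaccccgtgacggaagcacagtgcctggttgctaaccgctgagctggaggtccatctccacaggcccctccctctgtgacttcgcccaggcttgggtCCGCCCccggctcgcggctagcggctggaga
Acads: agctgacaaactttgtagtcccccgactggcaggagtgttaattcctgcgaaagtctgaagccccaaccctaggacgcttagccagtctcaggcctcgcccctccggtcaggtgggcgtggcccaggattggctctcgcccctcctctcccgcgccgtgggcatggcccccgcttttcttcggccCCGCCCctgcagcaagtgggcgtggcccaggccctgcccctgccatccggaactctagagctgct
Acaa1a: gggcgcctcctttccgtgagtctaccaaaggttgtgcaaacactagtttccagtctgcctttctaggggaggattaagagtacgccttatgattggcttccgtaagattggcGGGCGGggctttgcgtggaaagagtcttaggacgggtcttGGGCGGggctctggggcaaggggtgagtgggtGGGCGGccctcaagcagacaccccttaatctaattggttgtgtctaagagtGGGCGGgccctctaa
Eci2: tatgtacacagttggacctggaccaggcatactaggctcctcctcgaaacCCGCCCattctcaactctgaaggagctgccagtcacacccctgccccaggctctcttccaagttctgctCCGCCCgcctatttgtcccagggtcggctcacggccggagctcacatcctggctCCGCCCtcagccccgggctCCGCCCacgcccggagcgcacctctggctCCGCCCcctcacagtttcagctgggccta
The Cpt1a window held no GC box and was 45.6% G and C. Those of Crat and Acads held 1 each, that of Acaa1a 4 and that of Eci2 5, at 63.6%, 65.6%, 56.4% and 64.8% G and C. The classical peroxisome proliferator response element, a direct repeat of AGGTCA with any 1 base between, searched on both strands, was in 0 of the 30 promoters found for the 35 genes. It was in 0.055% of the 27457 promoters of the table, and a missing match says only that these letters are not in these windows. GC boxes were in 21 of the 30, against 59.0% of the 9653 promoters of genes in both expression tables. AGGTCA alone, which the repeat contains, was in 6 of 30, against 10.5% of those promoters. CCAAT was in 9 of 30, against 35.4%, and the cAMP element TGACGTCA in 2 (Acadm and Ppargc1a), against 2.88%. The 5 motifs were chosen after the expression values had been seen.

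**Figure D1:**
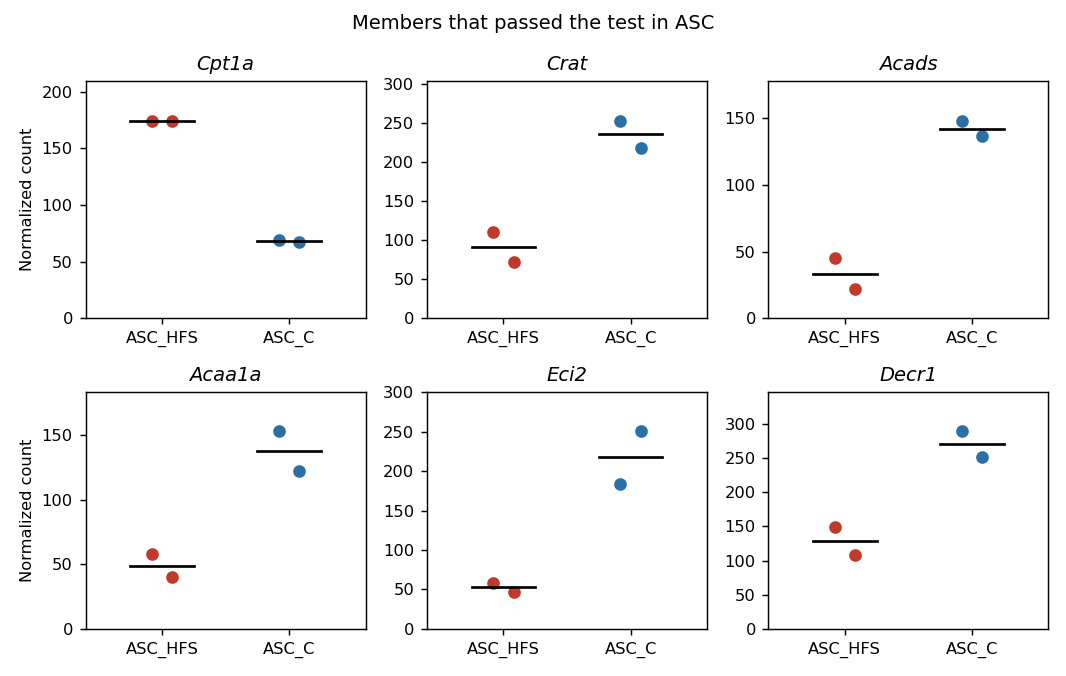
Normalized counts (y axes, from 0) of the 6 genes called in stem cells, with 1 point per library, ASC_HFS left of ASC_C, and a black line at the mean of 2 libraries. Cpt1a sits near 174 in ASC_HFS and 69 in ASC_C, and in the other 5 panels both ASC_HFS points lie below both ASC_C points.

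Within the carnitine shuttle, Cpt1a (ENSRNOG00000014254) encodes the outer membrane transferase that commits long acyl chains to mitochondria. Its normalized count was 174.6 and 174.1 in ASC_HFS, against 69.5 and 67.7 in ASC_C. The groups lay far apart and each pair agreed closely, with a log2 difference of 0.89 ± 0.22 (SE, limma adjusted p = 0.0142). Crat (ENSRNOG00000018145), the carnitine acetyltransferase that handles the shortest chains, had 109.8 and 72.5 in ASC_HFS, against 252.9 and 217.4 in ASC_C. Both HFS libraries were below both C libraries (log2 difference -0.98 ± 0.24, limma adjusted p = 0.0126).

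The remaining shuttle genes were not called. Slc25a20, the translocase of the inner membrane, had 91.0 and 94.3 in ASC_HFS, against 174.1 and 137.6 in ASC_C, a ratio of 0.59 with limma adjusted p = 0.140. Cpt1b, the muscle-type form of the entry enzyme, rested on few reads, 18 and 6 in ASC_HFS against 6 and 24 in ASC_C. Its normalized counts were 11.2 and 21.8 in ASC_HFS and 5.56 and 10.8 in ASC_C. Cpt2, the transferase of the inner membrane, overlapped between diets, at 46.1 and 68.9 in ASC_HFS and 59.3 and 55.1 in ASC_C.

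Among the acyl-CoA dehydrogenases, which take the first step of each turn, Acads (ENSRNOG00000001177), specific for short chains, was the 1 called of 6. It had 44.9 and 21.8 normalized counts in ASC_HFS, against 148.2 and 136.3 in ASC_C (log2 difference -1.22 ± 0.23, limma adjusted p = 0.00340). The lower of these values stands for 6 reads in the shallow library and the other for 72 reads. Acadm, for medium chains, had 116.6 and 83.4 in ASC_HFS, against 134.3 and 166.3 in ASC_C, without overlap but with limma adjusted p = 0.246. Acad10, a less studied member of the family, had 799.4 and 736.1 in ASC_HFS, against 1449.7 and 946.4 in ASC_C (limma adjusted p = 0.199). The long-chain genes Acadl and Acadvl and the family member Acad11 had ratios of 1.22, 0.90 and 1.15 and did not pass.

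The genes for the later steps in the matrix were not called. Hadha and Hadhb encode the alpha and beta subunits of the trifunctional protein, which carries out the last 3 steps on long chains. Hadha had 375.4 and 315.5 in ASC_HFS and 391.8 and 374.8 in ASC_C, while Hadhb had 247.6 and 264.7 in ASC_HFS and 367.7 and 437.1 in ASC_C. Their ratios of 0.90 and 0.64 had limma adjusted p of 0.753 and 0.146. In GRCr8 their annotated starts lie 300 bases apart on opposite strands of chromosome 6, so that their 250-base windows share 200 bases. The Hadha window is shown (chr6:31907551-31907800, plus strand), with its GC box in capitals, while the Hadhb window held 2.
Hadha: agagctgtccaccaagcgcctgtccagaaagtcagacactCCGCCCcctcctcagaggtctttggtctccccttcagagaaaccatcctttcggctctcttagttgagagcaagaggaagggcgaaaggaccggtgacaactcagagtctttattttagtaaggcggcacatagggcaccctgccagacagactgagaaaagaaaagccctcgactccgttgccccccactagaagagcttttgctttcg
Hadh, the dehydrogenase for shorter chains, and Acaa2, the mitochondrial thiolase, had ratios of 0.83 and 0.98.

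Electron transfer flavoprotein consists of the products of Etfa and Etfb, and Etfdh passes its electrons to ubiquinone. All 3 had a log2 difference below 0, and none passed. Etfa overlapped between the diets, at 196.4 and 130.5 in ASC_HFS and 330.7 and 195.9 in ASC_C. Etfb had 117.9 and 36.3 in ASC_HFS, far apart from each other, against 123.2 and 184.7 in ASC_C (limma adjusted p = 0.102).

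The auxiliary enzymes that prepare unsaturated chains for the spiral held 2 of the 6 called genes. Eci2 (ENSRNOG00000029549), an isomerase found in both mitochondria and peroxisomes, had 58.6 and 47.1 normalized counts in ASC_HFS, against 184.3 and 250.6 in ASC_C. With a log2 difference of -1.33 ± 0.23 it had the lowest adjusted p of the 32 genes (limma adjusted p = 0.00207). Decr1 (ENSRNOG00000008236), the mitochondrial dienoyl-CoA reductase, had 149.7 and 108.8 in ASC_HFS, against 289.0 and 251.1 in ASC_C (log2 difference -0.81 ± 0.24, limma adjusted p = 0.0322). Eci1, the mitochondrial isomerase, also had both HFS libraries below both C libraries, at 128.5 and 123.3 against 167.7 and 155.6, but did not pass (limma adjusted p = 0.463).

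Of the 7 peroxisomal genes, the thiolase Acaa1a (ENSRNOG00000032908) was called. It had 58.0 and 39.9 normalized counts in ASC_HFS, against 152.8 and 121.9 in ASC_C (log2 difference -0.90 ± 0.23, limma adjusted p = 0.0147). Rats carry a close copy, Acaa1b, and reads shared between the copies make the split uncertain. Ehhadh, the L-bifunctional enzyme and a known target of Ppara in rat liver, had 13 and 5 reads in ASC_HFS and only 2 and 1 in ASC_C, so no fold is given (limma adjusted p = 0.0827). Its normalized counts were 8.11 and 18.1 in ASC_HFS and 1.85 and 0.448 in ASC_C, and both C libraries lay under the limit that 3 reads set.

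The other peroxisomal genes did not pass and pointed both ways. Pex11a, which acts in peroxisome division, had 11.2 and 14.5 in ASC_HFS, against 15.7 and 37.2 in ASC_C. Abcd2, a membrane transporter of very long acyl chains, had 17.5 and 29.0 in ASC_HFS, against 4.63 and 15.7 in ASC_C. Both rested on few reads, at most 28 in an ASC_HFS library. The oxidase gene Acox3, the D-bifunctional enzyme gene Hsd17b4 and the import receptor gene Pex5 had ratios of 1.00, 0.76 and 1.19.

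Of the regulators and the genes beside the pathway, none was called in stem cells. Ppard had 199.5 and 228.5 in ASC_HFS, against 120.4 and 120.6 in ASC_C, a ratio of 1.78 with limma adjusted p = 0.0839. Ppara was at 1.87 and 58.0 in ASC_HFS, the HFS libraries lying on either side of the 11.1 and 13.4 in ASC_C, and its direction changed with the library left out. Acot2, a mitochondrial thioesterase with neighbouring near-copies that may share reads, had 45.5 and 47.1 in ASC_HFS, against 18.5 and 33.2 in ASC_C. Ucp2, an inner membrane carrier known for high expression in macrophages, had 232.0 and 330.0 in ASC_HFS, against 209.3 and 156.0 in ASC_C (ratio 1.54, limma adjusted p = 0.206).

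Between the diets, 23 of the 32 genes had libraries that did not overlap, 9 higher and 14 lower in ASC_HFS, while 61.0% of all genes did so. With 2 libraries against 2, an exact permutation test of a single gene cannot go below p = 0.333, so the calls rest on the spread pooled over all genes. No gene of the 32 was called by limma-trend when any 1 of the 4 ASC libraries was left out, nor was any of the 14295. In these fits 4 to 10 of the 32, and 2318 to 4538 of all genes, had an unadjusted p under 0.05. With limma-voom on recovered reads, the same total of 1 higher and 5 lower was called with all libraries. With ASC_HFS replicate 1 left out it was 0 (9 at unadjusted p under 0.05), with ASC_HFS replicate 2 left out 3, and with either ASC_C library left out 8. The 6 log2 differences kept their sign in every such fit.

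Genes that are not on the list, of this pathway and of other pathways, were read from 8 other lists. Among other genes of mitochondrial oxidation, 0 of 29 were higher and 8 (27.6%) lower in ASC_HFS, with a median log2 difference of -0.50. Over all genes, the shares were 9.41% higher and 9.70% lower. Ivd, which oxidizes isovaleryl-CoA from leucine, was 3.00-fold lower, Acadsb, for branched short chains, 2.93-fold lower, and Hsd17b10 2.12-fold lower. Acot1, the cytosolic near-copy of Acot2, had 0 reads in both ASC_HFS libraries and 15 and 25 in ASC_C. Among other peroxisomal genes, 2 of 38 (5.26%) were higher and 5 (13.2%) lower, in total close to the share over all genes (18.4% against 19.1%). The ether lipid enzyme gene Agps was 2.88-fold higher. Abcd4, Pex11g, Pxmp4 and Mpv17 were among the 5 lower. Of these, Abcd4 had 16 and 1 reads in ASC_HFS, and Pex11g 1 and 1.

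Targets and partners of the nuclear receptors were more often higher than lower in the count of calls. Of 32 other receptor regulators and targets, 7 (21.9%) were higher and 1 (3.13%) lower in ASC_HFS, with a median of 0.13. Over all genes, the shares were 9.41% and 9.70%. Plin2, a lipid droplet coat gene, was 3.74-fold higher and Angptl4, an inhibitor of lipoprotein lipase, 3.65-fold higher. The deacetylase gene Sirt1 was 2.69-fold higher and the lipase gene Lipe 2.33-fold higher. Lipe, also on the adipocyte marker list, had 257.5 and 199.4 normalized counts in ASC_HFS. Its ASC_C libraries lay far apart, at 40.8 and 155.6. The transcription factor gene Klf15 was lower, with 12 and 4 reads in ASC_HFS against 43 and 111 in ASC_C, so no fold is given. Of 8 ketone body genes, 2 were higher, among them the monocarboxylate carrier gene Slc16a1 (2.06-fold).

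In the lists for energy use and lipid making, more genes were called lower than higher, and most genes did not pass. Over all genes, 9.70% were called lower. The share was 37.2% in the respiratory chain, 38.1% in fatty acid and triglyceride synthesis and 15.0% in mitochondrial transport and dynamics. In the tricarboxylic acid cycle it was 4.76%, below that of all genes. Of 43 nuclear genes of the respiratory chain, 0 were higher and 16 lower in ASC_HFS, with a median of -0.78 and 42 of 43 below 0. The largest by log2 difference were Atp5po (3.24-fold lower), Ndufa2 (3.47-fold), Ndufb5 (2.86-fold) and Ndufs3 (2.95-fold), subunits of ATP synthase and complex I. All 4 were lowest in the shallow ASC_HFS replicate 2, on 49, 31, 18 and 25 reads. The ASC_HFS libraries lay far apart for Atp5po (538.8 and 177.7 normalized counts) and Ndufb5 (169.0 and 65.3). In ASC_C, Atp5po had 855.9 and 1468.7 and Ndufb5 320.5 and 350.6. Of 21 genes of the tricarboxylic acid cycle 1 was lower, Dlst (2.17-fold), and of 20 mitochondrial transport and dynamics genes 3 were lower, Slc25a1, Slc25a11 and Fis1. Of 21 genes of fatty acid and triglyceride synthesis, 2 were higher (Thrsp 2.73-fold and Dgat2 2.24-fold) and 8 lower. The lower ones were led by the desaturase gene Scd2 (8.41-fold) and the citrate carrier gene Slc25a1 (3.72-fold). For Thrsp the ASC_C libraries lay far apart, at 134.3 and 656.8 normalized counts, against 1260 and 895.7 in ASC_HFS. None of these lists was tested as a set.

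Markers of other cell types moved with the diet in the same stem cell libraries. Over all genes, 9.41% were called higher and 9.70% lower in ASC_HFS. Macrophage markers summed to 7195 and 7113 RPM in ASC_HFS, against 4756 and 5324 in ASC_C, with 15 of 23 called higher. Lgals3, which other cells also express, ran the other way, at 2646 and 2184 in ASC_HFS against 3133 and 3496 in ASC_C. Endothelial markers summed to 1568 and 1485 in ASC_HFS, against 379.7 and 833.4 in ASC_C (8 of 12 higher), and epithelial or mammary markers to 1489 and 1662 in ASC_HFS, against 119.5 and 164.3 in ASC_C (9 of 12 higher). Adipocyte markers summed to 5808 and 4516 in ASC_HFS, against 2218 and 5821 in ASC_C, with 7 of 17 called higher and the C libraries on either side. Smooth muscle and pericyte markers had a lower sum in ASC_HFS, 346.2 and 231.7, against 556.7 and 486.2 in ASC_C. Of these 10, 2 were called higher and 2 lower. Not listed for stem cells, and so without a level here, were 1 of 24 macrophage and 2 of 14 endothelial symbols. The same held for 2 of 14 epithelial or mammary and 4 of 21 adipocyte symbols. No listed marker was at 0 in all 4 libraries, but a gene without reads may not have been listed. The part of these cells in the differences of Cpt1a and of the 5 lower genes was not tested.

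In adipocytes, Ucp2, an inner membrane carrier beside the pathway, was the 1 listed gene called of 34. Its transcript was 3.08-fold higher in AD_HFS. Over all 18236 genes, 1.31% were called higher and 0.0329% lower, 1.34% in all, so 1 of 34 (2.94%) is a small count against a small background. The median log2 difference was 0.09 over the 34 genes and -0.01 over all genes. The plot of diet differences sets the adipocytes beside the stem cells gene by gene.

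**Figure D2:**
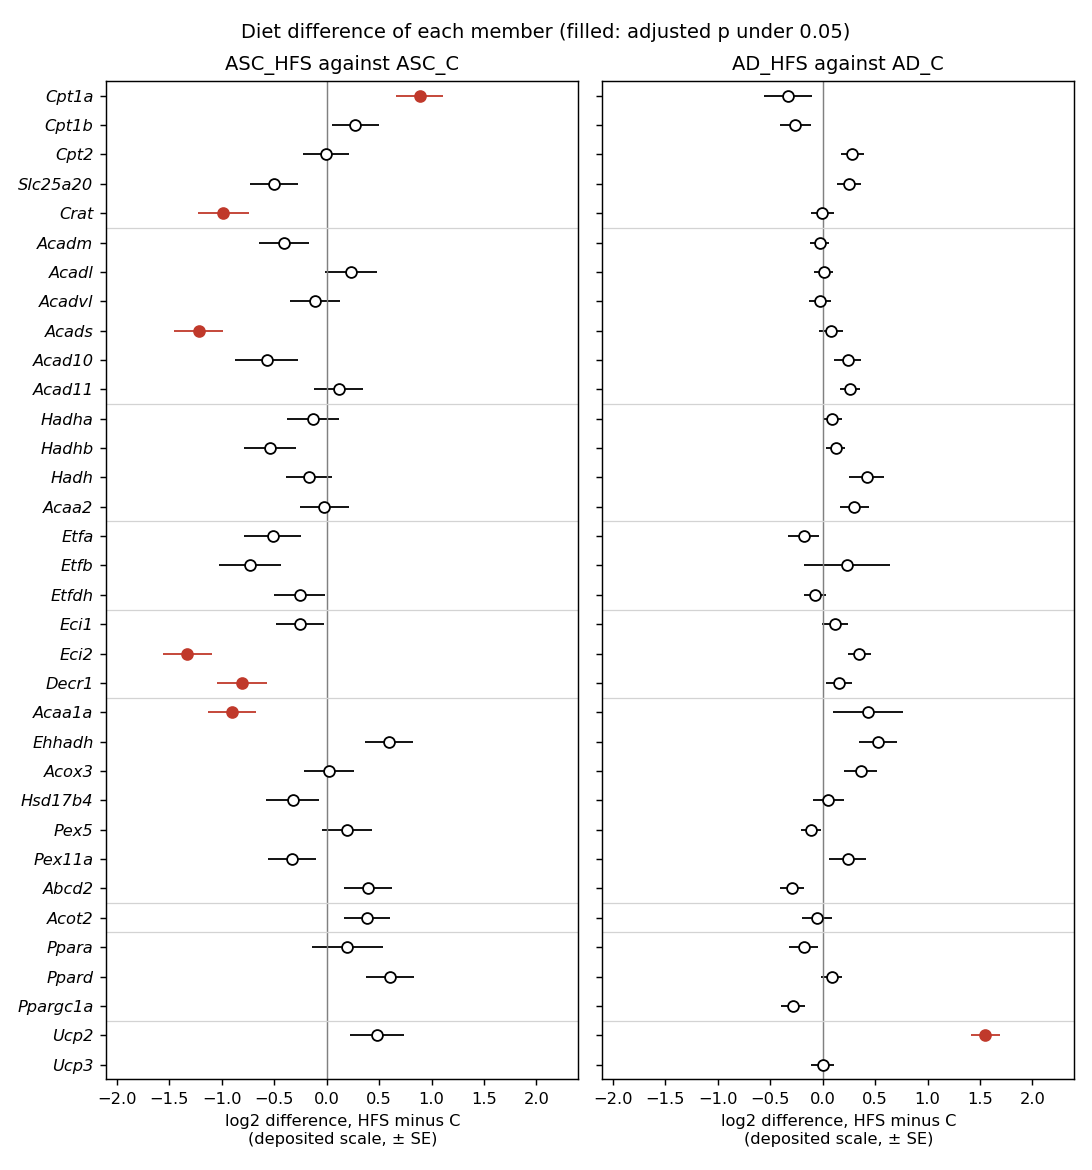
Log2 difference, HFS minus C, on the deposited scale (x axis, bars ± SE) for each listed gene (y axis, grouped by role), in stem cells on the left and adipocytes on the right, with called genes filled in red. Stem cell values spread from -1.33 for Eci2 to 0.89 for Cpt1a, and adipocyte values, other than 1.55 for Ucp2, lie between -0.33 and 0.53.

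Ucp2 (ENSRNOG00000017854) had 8204 and 7402 normalized counts in AD_HFS, against 2263 and 2811 in AD_C. The groups did not overlap, and the log2 difference was 1.55 ± 0.14 (SE, limma adjusted p = 0.0300, and 0.0347 with limma-voom). Its RefSeq promoter window (chr1:164251123-164251372, plus strand, GRCr8) is shown as the region of the 1 gene called in adipocytes, and none of the 5 motifs was found in it.
Ucp2: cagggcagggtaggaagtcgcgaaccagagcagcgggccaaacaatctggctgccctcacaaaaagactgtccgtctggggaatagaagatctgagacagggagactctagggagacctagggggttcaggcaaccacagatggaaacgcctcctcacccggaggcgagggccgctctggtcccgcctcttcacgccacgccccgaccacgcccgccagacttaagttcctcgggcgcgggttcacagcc
Ucp3, the related carrier known from muscle and brown fat, had 1020.7 and 1021.3 in AD_HFS, against 1009.1 and 1029.4 in AD_C, so the diets coincided.

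The Ucp2 difference ran beside that of macrophage markers. In adipocyte cultures these summed to 5827 and 5834 RPM in AD_HFS, against 2068 and 2054 in AD_C. Of the 23 markers, 15 were called higher by limma-trend, beside 1.31% of all genes. Limma-voom called 11 of them higher, beside 147 of all 18236 genes. Like the Ucp2 call, these calls rest on the close AD_HFS pair, as set out below. Lgals3 made up 1478 and 1482 of those reads in AD_HFS, against 1559.5 and 1120.2 in AD_C. The macrophage receptor Adgre1 had 55.4 and 59.4 RPM in AD_HFS, against 1.55 and 8.08 in AD_C. Summed adipocyte markers were 34038 and 33874 in AD_HFS, against 27749 and 33991 in AD_C, with 0 of 18 called by limma-trend or limma-voom (2 at unadjusted p under 0.05). Some markers of other cells were higher as well. Smooth muscle and pericyte markers summed to 958.9 and 948.5 RPM in AD_HFS, against 560.2 and 450.9 in AD_C. All 10 had a log2 difference above 0, and 0 were called. Tf, from the hepatocyte list, had 1881 and 1836 RPM in AD_HFS, against 507.7 and 590.5 in AD_C. On that list 2 of 6 had a log2 difference below 0. The part of RNA from macrophages or other cells in the Ucp2 difference was not tested.

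**Figure D3:**
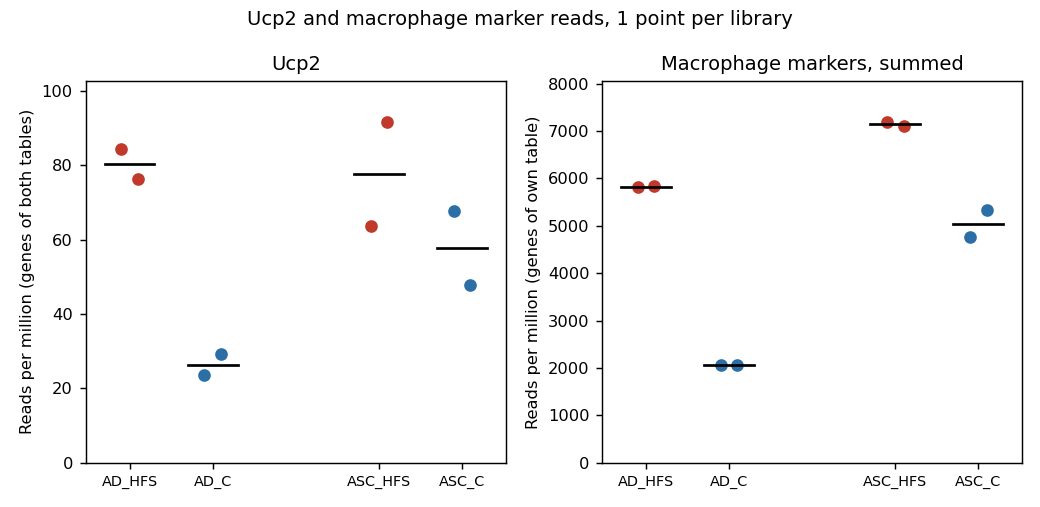
RPM of Ucp2 (left, over genes of both tables) and of 23 macrophage markers summed (right, over genes of each table), 1 point per library with a black line at the mean, HFS in red left of C in blue within each stage. In adipocytes both quantities are higher in both HFS libraries, and in stem cells the Ucp2 points lie between 47.7 and 91.7.

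No other listed gene passed in adipocytes. Cpt1a had 1013 and 1040.5 in AD_HFS, against 1719 and 1042 in AD_C, its C libraries being far apart (ratio 0.74, limma adjusted p = 0.595). Crat, Acads and Decr1 had ratios of 0.99, 1.06 and 1.11. Eci2 had 3423 and 3583 in AD_HFS, against 2532 and 2895 in AD_C (ratio 1.29, limma adjusted p = 0.272). Acaa1a had 7580.0 and 7451 in AD_HFS and 3843 and 7859 in AD_C, with the C libraries on either side (ratio 1.28). Etfb showed the same spread, with 2269 and 2129 in AD_HFS against 1131 and 2922 in AD_C.

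None of the genes for the first steps was called. Of the carnitine shuttle, Cpt1b, Cpt2 and Slc25a20 had ratios of 0.81, 1.22 and 1.20 without overlap. Of the acyl-CoA dehydrogenases, Acadm had 7070.1 and 6969.9 in AD_HFS, against 7402 and 6903 in AD_C, and the family spanned ratios of 0.98 to 1.20. The 4 genes of the later matrix steps all had both HFS libraries above both C libraries, as did 24.2% of all genes. Hadha had 31234 and 30275 in AD_HFS, against 29099 and 28542 in AD_C, and Hadhb 25780 and 25904 in AD_HFS, against 23635 and 23706 in AD_C. Ratios in that role ran from 1.07 for Hadha to 1.33 for Hadh, and none passed.

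Among peroxisomal genes in adipocytes, Ehhadh had the largest ratio, 1.52, with 1347 and 1278 in AD_HFS against 705.2 and 1021 in AD_C (limma adjusted p = 0.304). Pex11a had 12441 and 13081 in AD_HFS, against 9140.1 and 12695 in AD_C, and Abcd2 2511.5 and 2599.9 in AD_HFS, against 3446 and 2928 in AD_C. Ppara and Ppard had ratios of 0.83 and 1.07. Ppargc1a was low in every library, with 24 and 25 reads in AD_HFS and 48 and 50 in AD_C. Its normalized counts were 19.6 and 29.9 in AD_HFS, against 60.8 and 40.6 in AD_C, a ratio of 0.49 with limma adjusted p = 0.376.

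Libraries of the diets did not overlap for 19 of the 34 genes, 13 higher and 6 lower in AD_HFS, against 47.7% of all genes. The Ucp2 call ended when either AD_HFS library was left out or when the close AD_HFS pair was averaged and counted once, with 0 genes called by limma-trend in each of these fits and 1 of the 34 at an unadjusted p under 0.05. Limma-voom also called 0 with either AD_HFS library left out. With either AD_C library left out, the spread came from the close AD_HFS pair alone, so calls of those fits do not measure the diet difference. The log2 difference of Ucp2 ran from 1.41 to 1.69 over the limma-trend fits with 1 library left out. Ucp2 kept its direction in all of these. Of the 8 other pathway lists, 7 had 0 genes called in adipocytes by limma-trend or limma-voom, with 1 to 5 genes each at an unadjusted p under 0.05. The list of mitochondrial transport had 1 of 20, the aspartate and glutamate carrier gene Slc25a13, at 1290.4 and 1380.1 in AD_HFS against 293.7 and 342.6 in AD_C.

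Whether a diet difference itself differed between stages was tested in 1 fit of all 8 libraries. Over the 14018 genes of both tables, 12.5% were called, 7.53% with a higher and 4.93% with a lower HFS-minus-C difference in adipocytes. Of the 32 listed genes 6 were called, 5 higher and 1 lower. For Eci2, Acads, Crat and Decr1 the differences on the log2 scale were 0.35, 0.08, -0.0040 and 0.15 in adipocytes, against -1.33, -1.22, -0.98 and -0.81 in stem cells. The changes between stages were 1.67 ± 0.25, 1.30 ± 0.26, 0.98 ± 0.26 and 0.96 ± 0.26 (SE, limma adjusted p = 0.00584, 0.0159, 0.0366 and 0.0406). Cpt1a went the opposite way, with -0.33 in adipocytes and 0.89 in stem cells, a change of -1.22 ± 0.29 (limma adjusted p = 0.0288). Ucp2 had 1.55 in adipocytes and 0.48 in stem cells, a change of 1.07 ± 0.29 (limma adjusted p = 0.0401).

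With limma-voom on recovered reads 2 of these 6 passed, Eci2 (adjusted p = 0.0165) and Acads (0.0280), and Cpt1a missed the threshold at 0.0505. Leaving out 1 library at a time gave 1 to 8 called genes, with 1 call without AD_HFS replicate 1, AD_HFS replicate 2 or ASC_C replicate 1, 2 without ASC_HFS replicate 2 and 3 without AD_C replicate 1. Eci2 was called in each of these 8 fits (limma adjusted p up to 0.0346). The scale compresses genes with few reads, more in one table than in the other, which bears on all 6.

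Across stages, adipocytes carried more reads of the pathway than stem cells under both diets. Summed over the 32 genes in both tables, the level was 3659 ± 37.9 RPM in AD_HFS and 1281 ± 33.6 in ASC_HFS, and 3372 ± 156 in AD_C and 1859 ± 209 in ASC_C (SD, n = 2 each). The median ratio of adipocytes to stem cells was 3.22 under HFS and 1.91 under C, beside 1.15 and 0.90 over all 14018 genes of both tables. All 4 AD libraries were above all 4 ASC libraries for 21 of the 32 genes and below them for 1, Cpt1a, against 22.4% and 19.1% of all genes. The tables were normalized apart and their depths differ greatly, so RPM over shared genes were used and no test was made.

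**Figure D4:**
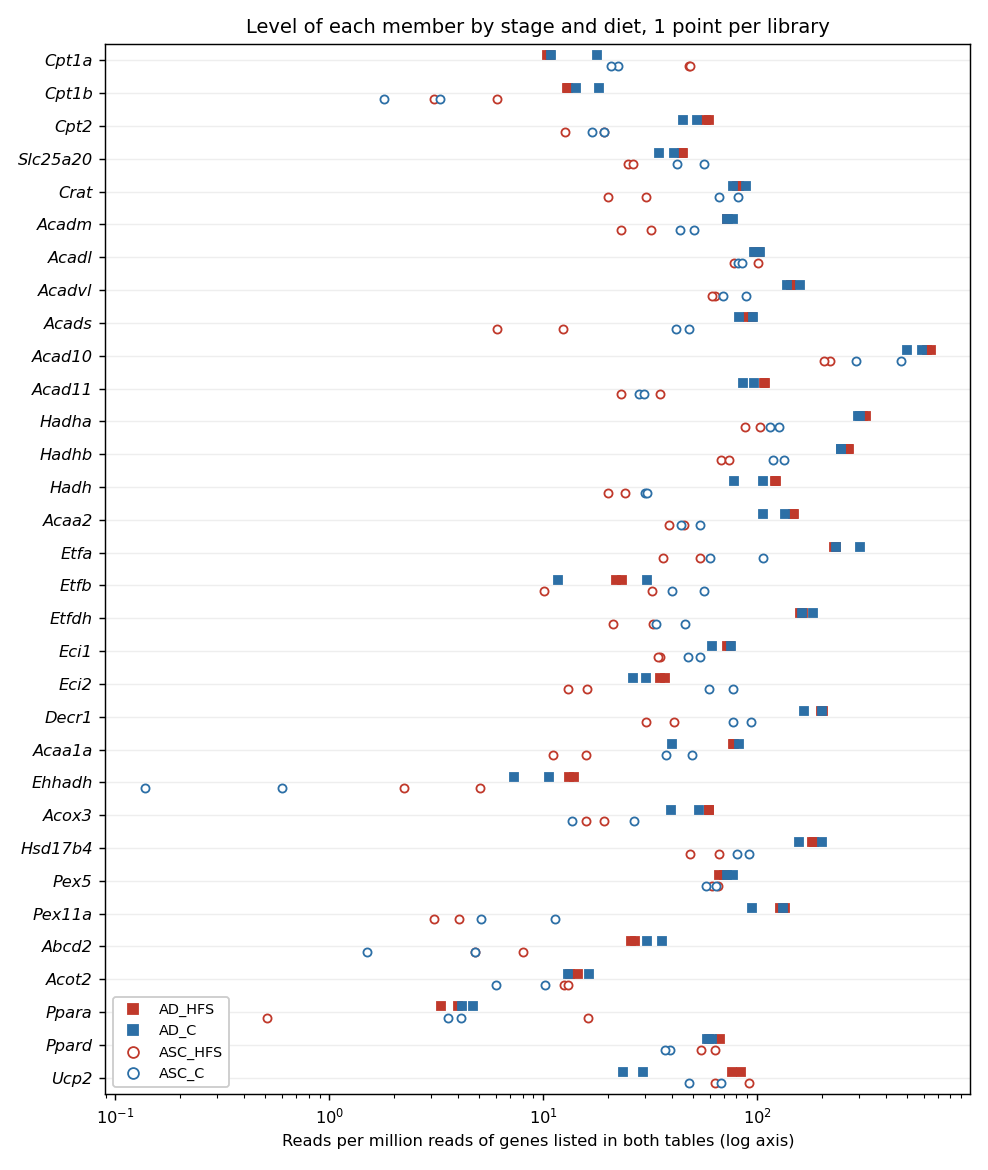
RPM over the 14018 genes of both tables (x axis, log scale) for each of the 32 genes (y axis, grouped by role), 1 point per library, with AD as filled squares above ASC as open circles and HFS in red, C in blue. Squares lie right of all circles for 21 genes, far right for Pex11a, and left of them for Cpt1a.

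Under HFS, Pex11a had the widest gap, at 127.9 and 135.0 RPM in AD_HFS against 3.08 and 4.03 in ASC_HFS, a 37.0-fold ratio that rests on 18 and 4 reads in ASC_HFS. Under C it had 95.0 and 132.2 in AD_C against 5.09 and 11.4 in ASC_C, and Ehhadh, with only 2 and 1 reads in ASC_C, had the widest gap, at 7.33 and 10.6 in AD_C against 0.599 and 0.137 in ASC_C. Cpt1a, in contrast, had 10.4 and 10.7 in AD_HFS against 47.9 and 48.4 in ASC_HFS, 4.55-fold lower in adipocytes. Under the C diet it had 17.9 and 10.8 in AD_C against 22.5 and 20.7 in ASC_C, a ratio of 0.67. The muscle-type Cpt1b had the reverse order, at 13.1 and 12.9 in AD_HFS against 3.08 and 6.05 in ASC_HFS, and 14.3 and 18.3 in AD_C against 1.80 and 3.29 in ASC_C. For both forms all 4 AD libraries thus lay on one side of all 4 ASC libraries, below them for Cpt1a and above them for Cpt1b.

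For several called genes, the ratio between stages differed by diet. For Acads, Decr1 and Eci2, called in stem cells, this largely restates their stem cell diet difference and is no separate result. Ucp2 was called in adipocytes only. Acads had 94.7 and 91.0 in AD_HFS against 12.3 and 6.05 in ASC_HFS, a ratio of 10.1, and 82.2 and 95.6 in AD_C against 47.9 and 41.7 in ASC_C, a ratio of 1.98. Decr1 had ratios of 5.65 under HFS and 2.16 under C. Eci2 changed order: 35.2 and 37.0 in AD_HFS lay above 16.1 and 13.1 in ASC_HFS, while 26.3 and 30.2 in AD_C lay below 59.6 and 76.7 in ASC_C. Ucp2 had 84.4 and 76.4 in AD_HFS and 63.6 and 91.7 in ASC_HFS, which overlapped, but 23.5 and 29.3 in AD_C against 67.7 and 47.7 in ASC_C. The low group for Ucp2 was thus AD_C alone.

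By role, the later matrix steps (Hadha, Hadhb, Hadh and Acaa2) summed to 851.8 ± 7.26 RPM in AD_HFS and 230.2 ± 0.948 in ASC_HFS, and 759.6 ± 37.6 in AD_C and 326.2 ± 4.58 in ASC_C. Electron transfer flavoprotein and Etfdh had the largest summed ratio of any role with several genes, 4.46 under HFS and 2.69 under C, though Etfb did not share it (1.07 and 0.44). The auxiliary enzymes differed most by diet, with ratios of 3.66 under HFS and 1.37 under C. Their sum was 85.0 ± 10.4 in ASC_HFS and 204.2 ± 4.32 in ASC_C. Of the enzyme groups with several genes, the carnitine shuttle had the smallest summed ratio between stages, at 1.75 under HFS and 1.21 under C. Its genes went both ways, from 0.22 for Cpt1a to 3.70 for Cpt2 under HFS. Under C they ran from 0.67 for Cpt1a to 6.40 for Cpt1b. Ppara and Ppard together had ratios of 0.99 and 1.54, and Ppard alone overlapped between stages under HFS, at 66.9 and 59.8 in AD_HFS and 54.7 and 63.5 in ASC_HFS.

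The adipocyte label fits the adipocyte markers, which summed to 27749 to 34038 RPM in the AD libraries. Mesenchymal progenitor markers were also high there, at 19173 and 19504 RPM in AD_HFS and 16045 and 28290 in AD_C. Among them, Col1a1 had 3790 and 3714 in AD_HFS and 1653 and 7556 in AD_C, so the AD_C cultures differed from each other. The share of undifferentiated cells was not tested. Brown adipocyte markers summed to 99.3 to 103.4, of which Cidea took 80.0 to 83.8, and Ppargc1a itself lay at 0.201 to 0.631. Skeletal muscle markers summed to at most 12.8 RPM in any library.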

How the data were processed

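RNA of 8 rat libraries, 2 in each of 4 groups, had been sequenced as 50 bp paired-end reads. The labels name both polyA RNA and a kit for rRNA depletion, and which was used is not settled here. Per the submitters' processing notes, the authors used FastQC, STAR, featureCounts and DESeq2 with the builds mRatBN7.2 and rn7, and versions are not given in the sources used here. The deposited values are a signal: in each of the 2 tables, normalized separately, they behave as the antilog, to base 2, of variance-stabilized normalized counts, with a lowest value of 34.7 in ASC and 107 in AD for genes without reads. Inverted, all values (100%) of each library came out as whole reads, to within 1e-06. Those reads give depth, normalized counts, ratios and RPM.

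HFS was tested against C within each table by a two-sided limma-trend test of log2(value + 1), under R 4.3.3 with limma 3.58.1. A gene was called at an adjusted p (Benjamini-Hochberg, over the whole table) under 0.05. A mean value of at least 10 was required and removed no gene. Log2 differences are on that scale and understate changes of genes with few reads. Stages were set side by side without a test. The fits were checked on simulated data. Motifs were searched with Python 3.11.15 (pandas 2.3.3, numpy 2.4.6, scipy 1.17.1), and matplotlib 3.10.9 drew the figures.

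The genes and lists were chosen with earlier results of these data known. Each gene got its own values when it was called, had non-overlapping groups with a ratio of at least 1.5 in either direction, or opened its role group, which gave 23 genes. Of the other lists, up to 4 called genes per direction were named, except 2 that are not reported here. Alternatives were pseudocounts of 0.5 and 5, filters, upper quartile and quantile scaling, a replicate block, robust moderation, limma-trend on recovered counts, limma-voom on their reads and each library left out. Averaging of the AD_HFS pair, a crossed block, limma-voom with a library left out and the stage ratio without ASC_HFS replicate 2 were added after seeing the data. The files hold no coordinates, and promoter positions are those of RefSeq on GRCr8. Reads without molecular identifiers are not independent molecules, and a limit of 3 reads covers counting error only.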

Additional observations from a re-analysis of the deposited data

Results flagged for a closer look

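For 6 genes the difference between HFS and C in adipocytes was not the same as that in stem cells by a direct test of all 8 libraries (limma-trend, Benjamini-Hochberg adjusted p under 0.05). On the log2 scale, the adipocyte difference minus the stem cell difference was 1.67 for Eci2, 1.30 for Acads, 0.98 for Crat, 0.96 for Decr1 and 1.07 for Ucp2, and -1.22 for Cpt1a. Counting the close AD_HFS pair as 1 sample left Eci2 called (adjusted p = 0.0284), with adjusted p from 0.0786 to 0.179 for the other 5. Of all genes of both tables, 12.5% met the same criterion. Groups of 2 libraries were too small to test for a library far from the others.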

How the results depend on the processing

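The counts of called genes below are given over all genes first and over the listed genes second. In ASC, 2731 and 6 genes were called. Pseudocounts, filters, scaling, robust moderation, recovered counts on the log2 scale, limma-voom and the replicate block gave 2308 to 3190 and 6 or 7. With 1 library left out, limma-trend gave 0 and 0 in all 4 fits, and over limma-trend and limma-voom the counts ran from 0 to 3643 and 0 to 8. In AD, 244 and 1 genes were called. Upper quartile scaling gave 95, recovered counts 112, limma-voom 150, and averaging the AD_HFS pair 0 and 0 (limma-trend, with 857 of all genes and 1 listed gene at unadjusted p under 0.05). With 1 library left out, AD gave 0 to 9830 and 0 to 22, the low end without either AD_HFS library and the high end without either AD_C library. For the difference between stages, 1747 and 6 were called, limma-voom gave 1298 and 2, averaging the AD_HFS pair 437 and 1, and leaving out 1 library 425 to 2382 and 1 to 8, lowest without AD_HFS replicate 1. The log2 of the median stage ratio was 1.69 under HFS and 1.62 without ASC_HFS replicate 2. The labels do not link replicate numbers across groups, and whether libraries were paired is not known. Deviations of same-numbered libraries had a correlation of -0.12 in ASC and 0.0014 in AD, which cannot settle it. The replicate block gave 661 called genes in AD, 2976 in ASC and 1422 for the difference between stages, and the crossed pairing gave 3634 in ASC.

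Some directions turned, and the cause was not tested. Ppara in ASC was 0.20 on the log2 scale and became -0.024 with recovered counts and -1.65 with limma-voom, and ran from -2.56 to 2.22 with 1 library left out. In AD, Crat was -0.0040 and became 0.0019 with upper quartile scaling and 0.018 with quantile normalization. With 1 AD library left out, log2 differences ran from -0.11 to 0.10 for Crat, -0.076 to 0.025 for Acadm, -0.025 to 0.19 for Acads, -0.064 to 0.97 for Acaa1a, -0.37 to 0.0072 for Etfa, -0.41 to 0.96 for Etfb, -0.023 to 0.27 for Eci1 and -0.23 to 0.10 for Acot2. Etfb was lower in AD_HFS without AD_C replicate 1 (log2 difference -0.38) and higher without AD_C replicate 2 (0.85). Its sign followed the AD_C library that was kept. For the difference between stages with 1 library left out, Ehhadh ran from -0.29 to 0.15 and Ppara from -1.08 to 0.32, and Ppara was 0.90 with limma-voom. Genes with few reads in ASC_HFS replicate 2, such as 6 for Acads and 13 for Eci2, are the least precise.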
